A study of Mus musculus with 12 samples.

Results

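Primary (azurophil) granules are the first granules a neutrophil makes, and 8 genes of that stage were followed here in RNA-seq libraries of mouse bone endothelial cells (BECs). The choice was made by name, with earlier results of these data known. The genes were Mpo, Elane, Prtn3, Ctsg, Ms4a3, Fcnb, Cebpe and Gfi1, matched to the deposited counts through their Ensembl IDs. They were 8 of the 37620 genes counted, of which 23039 had at least 1 count. BECs had been taken from bone, labelled tibia, of mice labelled c57/Bl6 by their endomucin, a surface protein of bone capillaries, and lysed directly for sequencing. The methods of the study describe dissecting femurs too and name the wild-type mice C57BL/6J, and whether femurs entered these libraries was not resolved. The design of this series asked how the sexes differ early in life and in old age. The 4 groups were females of 2 weeks, males of 2 weeks, females of 65 weeks and males of 65 weeks, with 3 libraries each and 12 in all. The study also sequenced BECs of 12-week mice, which are not among these libraries. No group carried a mutation or a treatment in the labels. Nothing states that the 3 libraries of a group came from separate mice, so p-values measure only the spread between these libraries, which may be technical. Per the methods of the study, libraries were made from the samples with the best RNA quality in each set.

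Neutrophils arise in the bone marrow from granulocyte and monocyte progenitors. The promyelocyte, an early precursor, transcribes the enzymes packed into primary granules, and transcription of these genes stops before the cell matures, while the proteins stay in the granules. Later precursors make secondary and tertiary granule proteins such as lactoferrin and the gelatinases, and the last stages make chemokine and formyl peptide receptors. Endothelial cells are not known as a source of these granule proteins, although marrow capillaries are in close contact with haematopoietic cells.

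The promoters of 3 members are shown for what the results turn on: Elane and Prtn3 are neighbours on chromosome 10 whose ratio of counts is described, and Fcnb was among the members that rose in both sexes. Each line gives the 150 bases before the transcription start, 5′ to 3′ on the strand of the gene, from RefSeq (GRCm38.p6). Capitals mark AGGAAG, a core recognised by the myeloid factor PU.1, and in Fcnb also the C/EBP pattern TTNCNNAA on the opposite strand. The stretches were chr10:79886162-79886311 (plus strand) for Elane, chr10:79879517-79879666 (plus strand) for Prtn3 and chr2:28084879-28085028 (minus strand) for Fcnb.
Elane: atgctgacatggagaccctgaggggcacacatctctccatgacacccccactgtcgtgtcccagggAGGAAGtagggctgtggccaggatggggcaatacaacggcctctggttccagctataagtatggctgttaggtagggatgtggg
Prtn3: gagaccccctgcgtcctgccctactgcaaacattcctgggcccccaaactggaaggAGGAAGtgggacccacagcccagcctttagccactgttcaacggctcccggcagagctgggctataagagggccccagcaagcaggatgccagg
Fcnb: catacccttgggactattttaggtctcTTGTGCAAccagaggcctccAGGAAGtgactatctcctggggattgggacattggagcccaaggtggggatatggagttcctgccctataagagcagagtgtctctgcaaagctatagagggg

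Motifs were searched in the 250 bases before each start, on both strands, in 32851 windows of which 8 belonged to 7 members (Gfi1 had 2). AGGAAG was present in 7 of these 8 windows, at least 1 for each of the 7 members, and in 29.48% of all windows. TTNCNNAA, the pattern searched for C/EBP, was present in 3 of 8 (Fcnb, Gfi1 and Ms4a3), against 36.85% of all windows. AACNG for MYB was present in 7 of 8 and in 74.19% of all, TGTGGT for RUNX in 1 of 8 (Ctsg) and in 14.05%, and AAATC for GFI1 in 1 of 8 (Mpo) and in 32.69%. Matches of the C/EBP and MYB patterns shared bases in Fcnb and in 1 window of Gfi1. A match describes letters in a window and not a site in use.

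Libraries held between 26044743 and 44569600 counts, and the members between 147 and 25226 counts per library. Gfi1 had the fewest, 147 to 541, so counting error was largest for it. Xist and 4 Y-linked genes matched the labelled sex of every library, although male 65-week replicate 3 held 117 Xist counts, beside 3 and 0 in the other old males, and female 2-week replicate 3 held 25 Y-linked counts. Markers of the labelled cell type were much lower in the older libraries. The summed level of 15 endothelial genes was between 3044 and 5526 CPM (counts per 1000000 counts of the library) at 2 weeks and between 227 and 331 CPM at 65 weeks, and all 15 fell with age in each sex, where 29.5% of all tested genes fell in females and 28.5% in males (edgeR). Emcn, which encodes endomucin, was at 147 ± 32.8 and 197 ± 38.0 CPM in females and males of 2 weeks, and at 5.004 ± 2.10 and 5.64 ± 0.971 CPM in those of 65 weeks (n = 3, SD). The summed level of 17 late neutrophil genes, in turn, was between 5947 and 8207 CPM at 2 weeks and between 14503 and 30972 CPM at 65 weeks. In bulk RNA, a different number of cells of a type and a different amount of RNA per cell cannot be told apart.

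All 8 members were measured in all 12 libraries. Their summed level was 492.5 ± 80.9 CPM in females and 335.9 ± 40.0 CPM in males of 2 weeks, and 600.3 ± 146 CPM in females and 1230 ± 653 CPM in males of 65 weeks (n = 3, SD). The order of the sexes was thus opposite at the 2 ages. The SD of the old males came from 1 library: replicate 2 stood at 1980 CPM, beside 928 and 783 CPM for replicates 1 and 3. Without it the mean of the old males was 856 CPM, and both remaining libraries stayed above the highest old female, at 752 CPM. Male 65-week replicate 2 was the highest of the 12 libraries for every member.

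**Figure D1:**
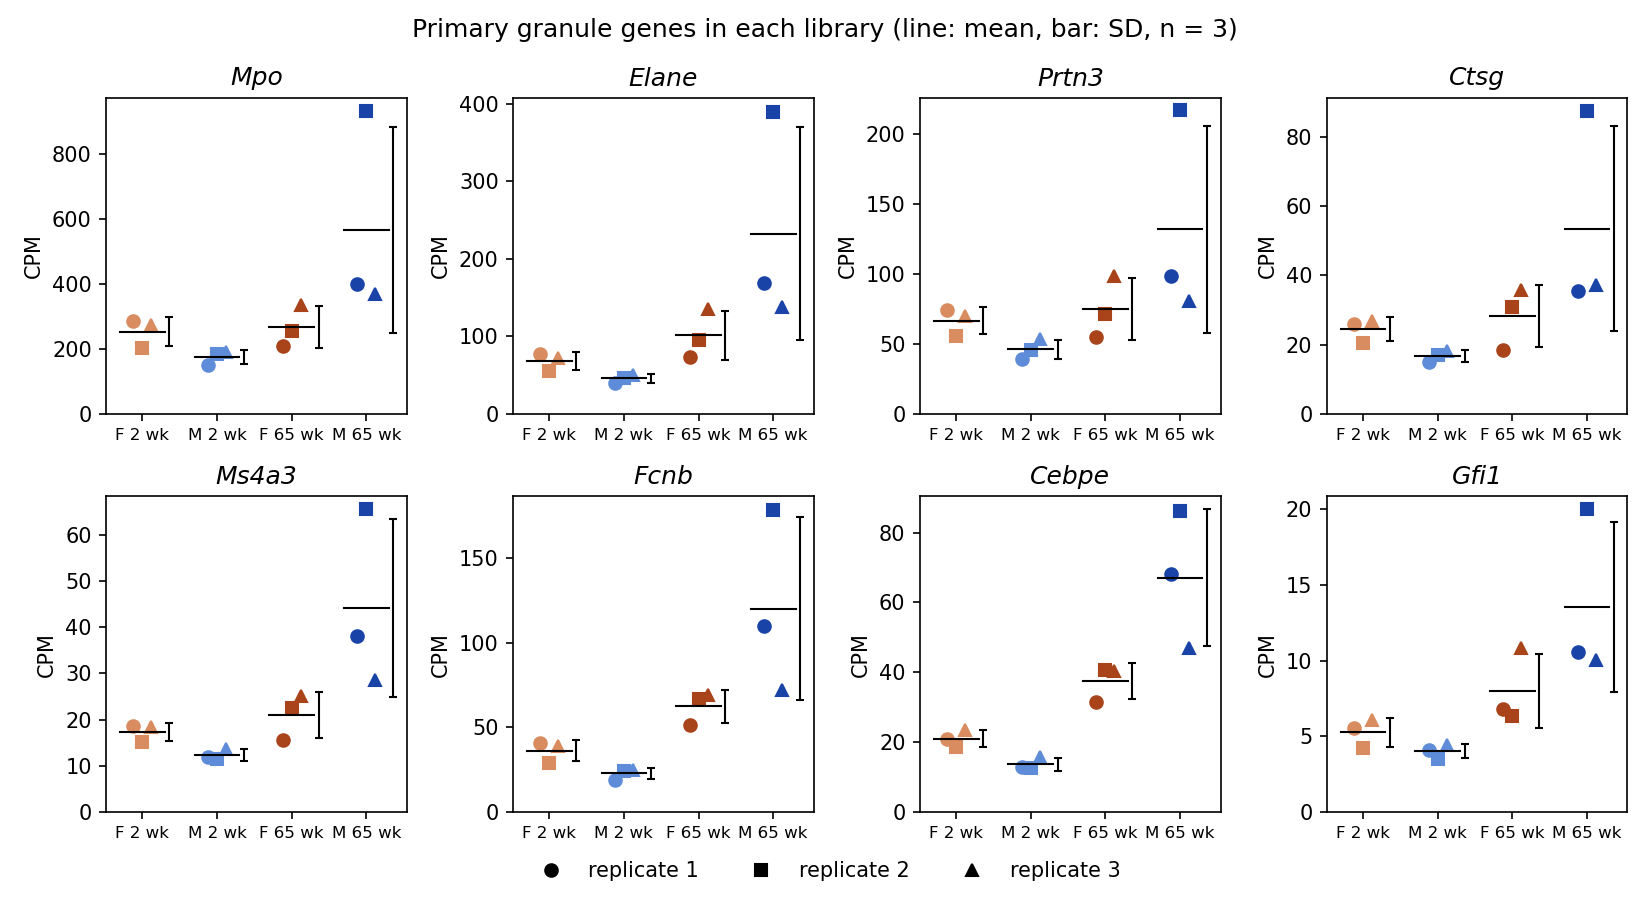
Level of each primary granule gene in CPM (vertical axes, each from 0) in every library, by group; the horizontal line is the mean and the bar the SD of 3 libraries. Male 65-week replicate 2 (square) lies above all other libraries in each panel, at 934 CPM for Mpo, and the 2-week males have the lowest mean in each panel.

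Levels of different genes were compared per kilobase of exon, taken over all exons annotated for a gene. The order thus depends on the annotation as well as on the counts. At 2 weeks Mpo was the highest member, at 74.0 ± 13.2 CPM per kb in females and 51.1 ± 6.27 in males, and Elane followed at 69.3 ± 11.8 and 46.0 ± 5.40 (SD, n = 3). The ranges of this pair overlapped in both sexes. At 65 weeks Elane came first, at 103 ± 32.4 CPM per kb in females and 236 ± 139 in males, ahead of Mpo at 78.0 ± 18.8 and 166 ± 92.8, and again the ranges overlapped. Prtn3 came next at 2 weeks (38.5 ± 5.59 CPM per kb in females), apart from its neighbours in the order, and after Fcnb at 65 weeks, where its range overlapped those of Fcnb and Cebpe in both sexes. Before division by length, Elane and Prtn3 were close in young females, at 68.4 and 66.7 CPM. Their exon lengths were 986 and 1732 bp, so their distance per kb came from the lengths. Ms4a3 was the lowest but 1 and Gfi1 the lowest in every group, Gfi1 at 1.26 ± 0.145 CPM per kb in young and 4.25 ± 1.77 in old males. Gfi1 was apart from Ms4a3 in each of the 4 groups.

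Whether these genes change with age was asked in each sex separately. In females 4 of 8 members rose, Cebpe and Fcnb by 0.97 and 0.92 on the log2 scale, the largest rises of the set, and the transcripts of Mpo, Prtn3, Ctsg and Ms4a3 did not pass the test. In males all 8 rose, by 3.13-fold to 5.77-fold. These calls are from the edgeR quasi-likelihood test with Benjamini-Hochberg adjustment at 0.05. Of all genes tested, 30.2% rose with age in females and 27.0% in males, so a call with age was common in these libraries. The median log2 change of the 8 members was 0.55 in females and 1.92 in males, against 0.01 over all genes in each sex. The median in females was 0.39 without female 2-week replicate 2, 0.35 without female 65-week replicate 3 and 0.71 without female 65-week replicate 1. Endothelial genes moved the other way in the same libraries, by a median of -4.18 in females and -4.44 in males on the log2 scale, and their part in these changes was not tested.

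Mpo encodes myeloperoxidase, the haem enzyme that forms hypochlorous acid and the most abundant primary granule protein. Mpo (ENSMUSG00000009350) lies on GRCm39 chromosome 11, 87684407 to 87695239, over an antisense RNA, Gm11505, with 0 to 11 counts. It was at 286, 202 and 272 CPM in the young females and at 210, 255 and 337 CPM in the old females, so the ages overlapped. In young males Mpo was at 150, 185 and 190 CPM, and in old males at 399, 934 and 370 CPM. Each old male library lay above each young one. Mpo differed by 0.21 log2 units in females (SE 0.197, edgeR adjusted p = 0.395) and rose by 1.82 in males (SE 0.359, edgeR adjusted p = 0.00364), or by 1.24 without male 65-week replicate 2. The value in females was 0.0083 without female 65-week replicate 3, 0.016 without female 2-week replicate 2 and 0.35 without female 65-week replicate 1, and did not pass in any of these fits.

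Elane encodes neutrophil elastase, and Prtn3 proteinase 3, serine proteases that arose by gene duplication. Elane (ENSMUSG00000020125, GRCm39 chromosome 10, 79722081 to 79724051) lies 3073 bp from Prtn3 (ENSMUSG00000057729, 79710310 to 79719008) on the same strand. Elane was at 77.5, 55.2 and 72.4 CPM in young females and at 72.6, 95.2 and 136 CPM in old females. Only the lowest old library fell within the young range. In males Elane was at 39.9, 45.7 and 50.6 CPM at 2 weeks and at 169, 390 and 138 CPM at 65 weeks, with a wide gap between the ages. Elane rose by 0.70 in females (SE 0.229, edgeR adjusted p = 0.0293) and by 2.48 in males (SE 0.388, edgeR adjusted p = 0.00117) on the log2 scale. The call in females was lost without female 2-week replicate 2 or 3 or female 65-week replicate 2 or 3, where the change was between 0.43 and 0.73 and the edgeR adjusted p between 0.0531 and 0.101.

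Prtn3 was at 74.1, 55.7 and 70.1 CPM in young and at 55.1, 71.0 and 98.6 CPM in old females, with overlapping ages. In males it was at 39.4, 45.3 and 53.3 CPM at 2 weeks and at 98.5, 217 and 80.5 CPM at 65 weeks, without overlap. The change was 0.30 log2 units in females (SE 0.209, edgeR adjusted p = 0.248) and a rise of 1.65 in males (SE 0.365, edgeR adjusted p = 0.00628) on the log2 scale. In females it was 0.056 without female 65-week replicate 3, 0.13 without female 2-week replicate 2 and 0.48 without female 65-week replicate 1, and did not pass in these fits. Without male 65-week replicate 2 the rise in males was 1.07 and passed the test (edgeR adjusted p = 0.00167). Prtn3 shares 197 bp of its span with Plppr3 on the other strand, which held between 126 and 519 counts, or 3.24% to 29.5% of the Prtn3 count. Whether strand was used in counting is not stated, so reads of this stretch could belong to either gene.

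Ctsg encodes cathepsin G, another serine protease of the granule, and lies on chromosome 14 (ENSMUSG00000040314, 56337338 to 56340031). Its level was 25.9, 20.5 and 26.9 CPM in young females and 18.5, 30.8 and 35.7 CPM in old females. Old females thus held both a lower and higher libraries than the young. In males Ctsg rose from 14.9, 17.02 and 18.2 CPM to 35.4, 87.7 and 37.3 CPM, by 1.80 log2 units (SE 0.352, edgeR adjusted p = 0.00351). Without male 65-week replicate 2 this was 1.22. In females the change was 0.35 (SE 0.234, edgeR adjusted p = 0.235), and it passed only without female 65-week replicate 1.

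Ms4a3 encodes a protein that spans the membrane and is used as a mark of granulocyte and monocyte progenitors and promyelocytes (ENSMUSG00000024681, chromosome 19, 11606860 to 11618215). It was at 18.6, 15.1 and 18.3 CPM in young and at 15.5, 22.6 and 25.1 CPM in old females, and at 11.8, 11.4 and 13.7 CPM in young and 38.0, 65.6 and 28.6 CPM in old males. The ages overlapped in females and were far apart in males. The log2 change was 0.41 in females (SE 0.187, edgeR adjusted p = 0.0894) and 1.97 in males (SE 0.303, edgeR adjusted p = 0.00109). The value in females passed the test without female 65-week replicate 1, at 0.59 (edgeR adjusted p = 0.0101).

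Fcnb encodes ficolin B, a lectin of myeloid cells that binds microbial sugars (ENSMUSG00000026835, chromosome 2, 27966389 to 27974897). In females its level was 40.5, 28.9 and 38.8 CPM at 2 weeks and 51.1, 66.9 and 68.8 CPM at 65 weeks. In males it was 18.9, 24.4 and 24.9 CPM at 2 weeks and 110, 178 and 72.0 CPM at 65 weeks. In neither sex did the ages overlap. Fcnb rose by 0.92 in females (SE 0.168, edgeR adjusted p = 0.00193) and by 2.53 in males (SE 0.330, edgeR adjusted p = 0.000468) on the log2 scale, and it passed the test in both sexes without any 1 library.

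Cebpe encodes C/EBPε, a transcription factor of the promyelocyte to myelocyte step that is needed for secondary granules (ENSMUSG00000052435, chromosome 14, 54947817 to 54949631). It was at 21.0, 18.5 and 23.3 CPM in young and at 31.4, 40.7 and 40.3 CPM in old females. In young males it was at 12.8, 12.4 and 15.8 CPM, and in old males at 68.1, 86.2 and 47.1 CPM. The ages were apart in both sexes. Cebpe rose by 0.97 in females (SE 0.141, edgeR adjusted p = 0.000575) and by 2.42 in males (SE 0.242, edgeR adjusted p = 0.000111) on the log2 scale, the smallest adjusted p of the 8 members in each sex. Without male 65-week replicate 2 the rise in males was 2.19.

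Gfi1 encodes a zinc-finger repressor that early granulocytes need to mature (ENSMUSG00000029275, chromosome 5, 107864523 to 107873902). It overlaps A430072P03Rik on the other strand, which had 1 to 10 counts. Its counts were the lowest of the set, at 5.55, 4.20 and 6.06 CPM in young and 6.82, 6.37 and 10.8 CPM in old females, and at 4.11, 3.52 and 4.43 CPM in young and 10.5, 20.04 and 10.1 CPM in old males. The ages did not overlap in either sex, although the lowest old female lay only just above the highest young one. Gfi1 rose by 0.73 in females (SE 0.252, edgeR adjusted p = 0.0354) and by 1.88 in males (SE 0.299, edgeR adjusted p = 0.00130) on the log2 scale. The call in females was lost without any 1 of the 3 young female libraries or without female 65-week replicate 3, with changes between 0.45 and 0.79 and edgeR adjusted p between 0.0529 and 0.124.

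In females, 3 of 8 members (Fcnb, Cebpe and Gfi1) had every old library above every young one, and 27.6% of all tested genes did. In males all 8 had, against 26.0% of all tested genes. The count of 4 members called in females moved with single libraries: it was 2 (Fcnb and Cebpe) without female 2-week replicate 2, female 2-week replicate 3 or female 65-week replicate 3, and 6 without female 65-week replicate 1. The count of 8 in males held without any 1 library, with log2 changes from 1.07 to 2.19 when male 65-week replicate 2 was left out. With library totals in place of TMM scaling, the median over all genes moved by -0.13 on the log2 scale in females and -0.12 in males, and the share of rises among called genes from 50.6% to 40.2% and from 48.7% to 40.4%. Elane and Gfi1 no longer passed in females.

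**Figure D2:**
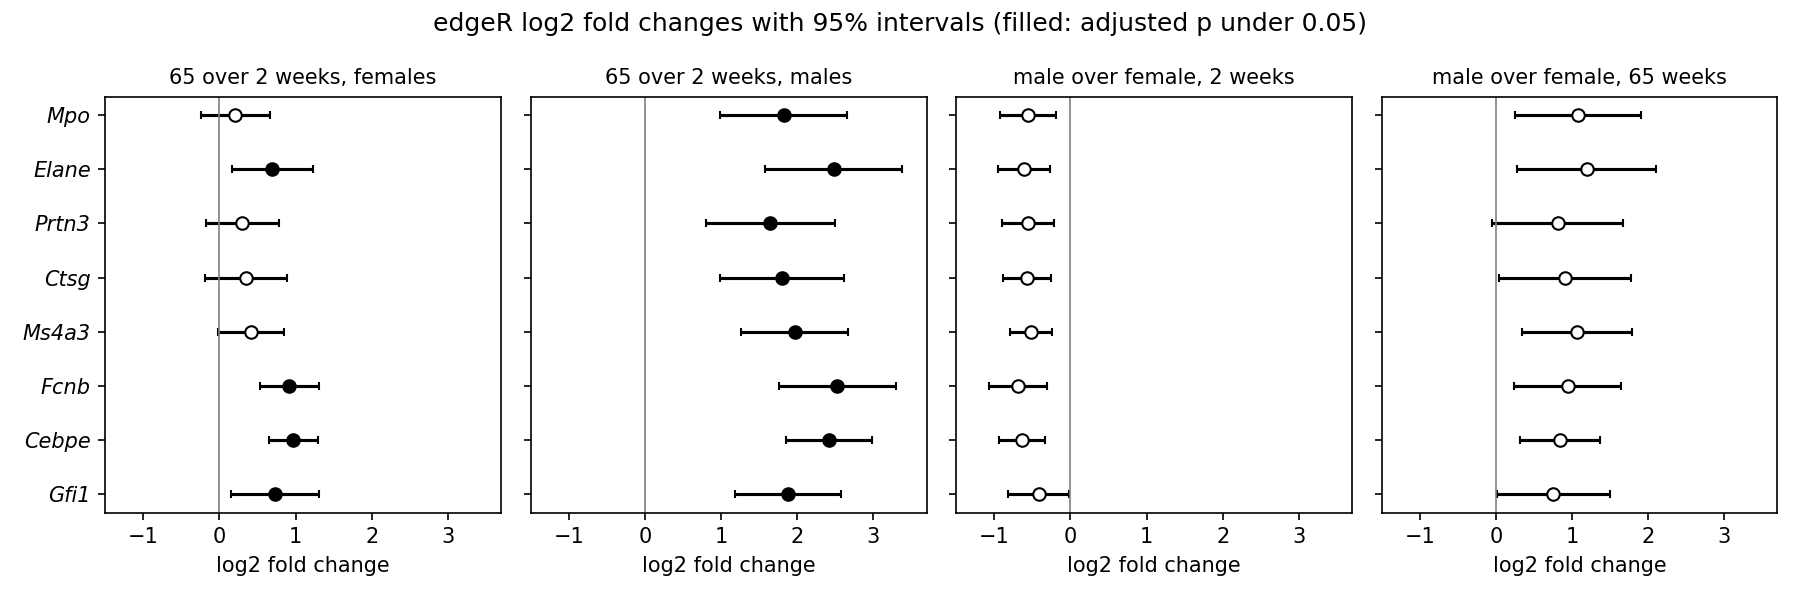
edgeR log2 fold change of each member (horizontal axis) with its 95% interval in 4 comparisons, with filled points for an adjusted p under 0.05. In old over young males all 8 points are filled and lie between 1.65 and 2.53, in females 4 are filled, and the sex comparisons have open points on opposite sides of 0 at the 2 ages.

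Sex differences were asked at each age. At 2 weeks all 8 members had a lower level in males, by 1.33-fold to 1.61-fold, and none passed the edgeR test (0 of 8, adjusted p between 0.213 and 0.274), in a comparison that called 0.0332% of genes. All 8 had an unadjusted p under 0.05, as had 2683 of the 15081 genes tested, 1532 of them lower in males. In the DESeq2 Wald test 7 members (all but Gfi1) passed. DESeq2 called 417 of the 23039 genes with at least 1 count, where edgeR called 5. For Mpo, Elane, Prtn3, Ctsg, Ms4a3, Fcnb and Cebpe every young male library lay below every young female library, which held for 11.8% of all tested genes in that direction. Fcnb had the largest difference, -0.69 log2 units (SE 0.165, 95% interval from -1.07 to -0.30, edgeR adjusted p = 0.213), and Gfi1 the smallest, -0.42 (SE 0.173, edgeR adjusted p = 0.274). The median of the 8 was -0.56, against 0.01 over all genes. Female 2-week replicate 2 was the lowest young female for every member, and without it the differences were between -0.57 and -0.84 with edgeR adjusted p from 0.0555 to 0.0632. In the same libraries the late neutrophil sum was 7020 to 8207 CPM in females and 5947 to 6331 CPM in males, and the sums of endothelial (3044 to 5267 and 4394 to 5526 CPM) and cell cycle genes (3124 to 5026 and 2317 to 3280 CPM) overlapped. Of the single markers, all 15 endothelial genes were higher in young males, with a median of 0.31 log2 units, and 4 had an unadjusted p under 0.05. All 10 cell cycle genes were lower in young males, with a median of -0.32, 2 had an unadjusted p under 0.05, and the libraries of Mki67 (-1.23) and Top2a (-0.46) did not overlap. None of these genes passed the edgeR test, and their part in the members' values was not tested.

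At 65 weeks all 8 members had a higher level in males, by 1.68-fold to 2.29-fold. Again none passed the edgeR test (0 of 8, adjusted p between 0.246 and 0.513), where 0.0420% of genes were called. There were 7 members with an unadjusted p under 0.05 (all but Prtn3), as had 1479 of 14287 genes tested, 715 of them higher in males. Of the members DESeq2 called Ms4a3, Fcnb and Cebpe. Over the 23039 genes with at least 1 count DESeq2 called 363, where edgeR called 6. Mpo, Elane, Ms4a3, Fcnb and Cebpe had every old male library above every old female one, which 9.32% of tested genes had in that direction. Elane had the largest difference, 1.19 log2 units (SE 0.398, 95% interval from 0.28 to 2.11, edgeR adjusted p = 0.344). The smallest was that of Gfi1, 0.75 (SE 0.324, edgeR adjusted p = 0.474). Both male 65-week replicate 2 and replicate 3 moved these values. Without replicate 2 the differences were between 0.25 (Prtn3) and 0.65 (Ms4a3), and none passed. Without replicate 3, the male library with the most Xist counts, they were between 0.95 and 1.47. In that fit Elane, Ms4a3, Fcnb and Cebpe passed (edgeR adjusted p between 0.00997 and 0.0470). That fit also called 830 genes over the whole table, where the fit with every library called 6. The late neutrophil sum was 14503 to 19202 CPM in old females and 21049 to 30972 CPM in old males.

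Whether the sexes differ by another amount in old age was tested as the sex by age interaction, with all 12 libraries. For each member the male over female difference was greater at 65 than at 2 weeks, by 1.14 (Gfi1) to 1.78 (Elane) on the log2 scale, and none passed the edgeR test (0 of 8, adjusted p between 0.119 and 0.300), in which 0.00635% of genes were called. All 8 had an unadjusted p under 0.05, as had 1880 of 15747 genes tested, 905 of them with a difference above 0. DESeq2 called 353 of the 23039 genes with at least 1 count, where edgeR called 1. The members called by DESeq2 were Mpo, Elane, Ms4a3, Fcnb and Cebpe. For these 5 every male library lay below every female one at 2 weeks and above at 65 weeks, a pattern that 141 of 13798 genes (1.02%) had. Cebpe had the smallest adjusted p, with a difference of 1.45 (SE 0.289, edgeR adjusted p = 0.119). Without male 65-week replicate 3 all but Ctsg and Gfi1 passed, 6 of 8, with differences of 1.36 to 2.08 over the set. That fit also called 750 genes over the whole table, where the fit with every library called 1. Without male 65-week replicate 2 no member passed and the range was 0.73 to 1.22. The age and sex comparisons use the same libraries and are not independent of one another.

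The members did not keep constant proportions. Mpo made up 50.5% to 53.6% of the members' counts at 2 weeks and 43.03% to 47.2% at 65 weeks. The ratio of Elane to Prtn3 counts stood out, and was singled out after its values were seen, so no test is given. It was 1.045, 0.9908 and 1.033 in young females and 1.013, 1.011 and 0.9484 in young males. In old females the ratio was 1.318, 1.340 and 1.377, and in old males 1.712, 1.796 and 1.717. The young sexes overlapped, the old females lay above all young libraries, and the old males lay above the old females. Male 65-week replicate 2, far above the others in level, lay close to the other old males in this ratio. Plppr3, which shares a stretch with Prtn3, held 3.24% to 29.5% of the Prtn3 count across the libraries. The highest share was that of male 2-week replicate 1 and the lowest that of male 65-week replicate 2. The use of strand is not stated, and whether the annotation used for counting held the shared stretch is not known. The part of Plppr3 in this ratio was not tested.

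The ratio of Fcnb to Mpo counts was 0.126 to 0.143 at 2 weeks and 0.191 to 0.274 at 65 weeks, with no overlap between the ages. For Cebpe over Mpo the values were 0.0673 to 0.0917 at 2 weeks and 0.0922 to 0.171 at 65 weeks, the lowest old value being that of male 65-week replicate 2. Elane over Mpo was 0.247 to 0.274 at 2 weeks and 0.346 to 0.422 at 65 weeks, without overlap. Ctsg, Prtn3 and Ms4a3 over Mpo overlapped between the ages in each sex, and Gfi1 over Mpo in males only. The members' profiles over the 12 libraries were read in the same way. The root mean square difference of centred log2 CPM was 0.12 for Mpo and Prtn3, 0.12 for Mpo and Ctsg and 0.15 for Fcnb and Cebpe, and it was largest, 0.45, for Prtn3 and Cebpe. These points share libraries and scaling, and the differences are a description.

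**Figure D3:**
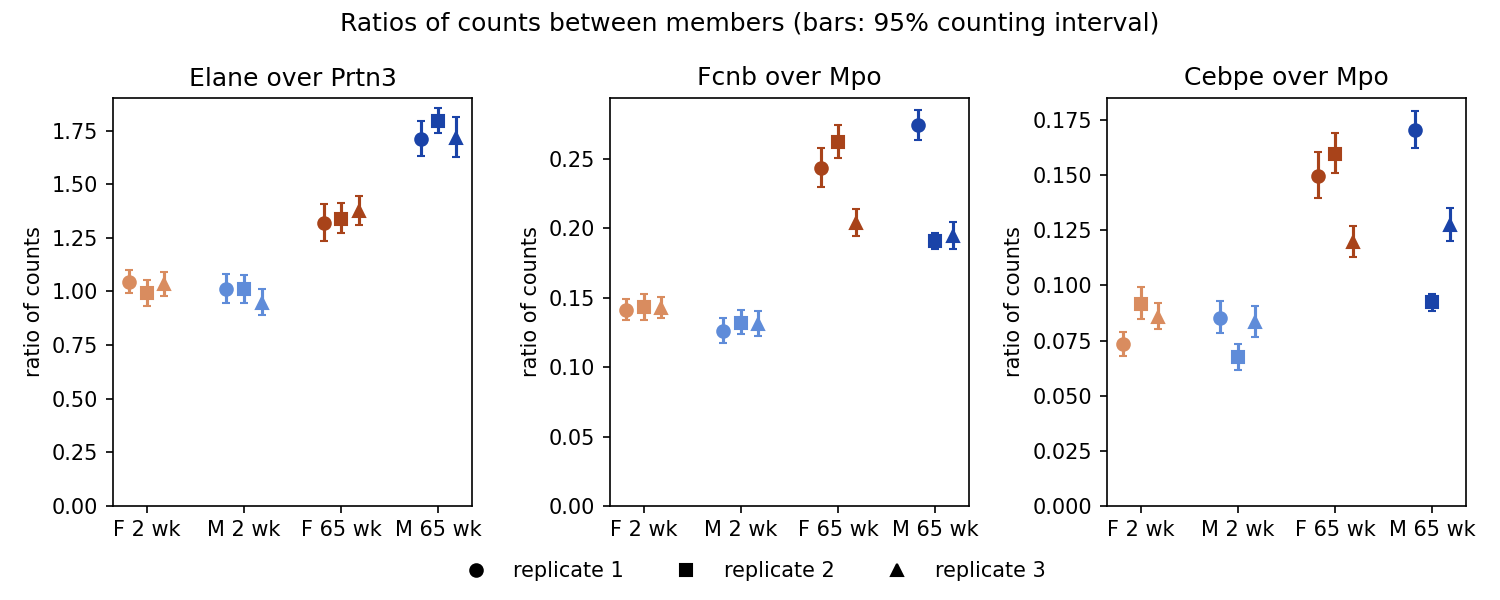
Ratios of counts between members (vertical axes, from 0) in each of 12 libraries, with 95% intervals that cover counting error only. Elane over Prtn3 is near 1 in the young libraries, 1.318 to 1.377 in old females and 1.712 to 1.796 in old males. Fcnb over Mpo is higher in every 65-week library. Cebpe over Mpo has higher means at 65 weeks, but male 65-week replicate 2 (0.0922) is level with female 2-week replicate 2 (0.0917).

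Other genes of the contents and processing of these granules were read for comparison. Of 10 such genes, 6 rose and none fell with age in each sex. Whatever the test, 8 were higher and 2 lower at 65 weeks in females, and 9 and 1 in males. Prss57, a granule serine protease, overlapped between the ages in females, at 7.57 ± 0.837 and 6.83 ± 2.08 CPM (n = 3, SD). In males Prss57 was at 5.42 ± 0.809 and 14.5 ± 7.78 CPM, without overlap. Lyz2, lysozyme of myeloid cells, rose by 1.46 in females and 1.75 in males on the log2 scale (SE 0.172 and 0.153, edgeR adjusted p = 0.000187 and 5.46e-05), and Srgn, the proteoglycan that retains granule proteases, by 1.64 and 1.43 (SE 0.136 and 0.107, edgeR adjusted p = 2.83e-05 and 2.57e-05). Ctsd, a lysosomal protease found in many cells, rose by 0.69 and 0.68 (edgeR adjusted p = 0.000421 and 0.0197). Ctsc, which activates the granule proteases, rose in females by 0.69 (edgeR adjusted p = 0.000422) and did not pass in males at 0.21 (edgeR adjusted p = 0.273). Between the old sexes 7 of the 10 were higher in males, with a median of 0.31 log2 units and values from -0.15 to 1.08 (Prss57), where the members ran from 0.75 to 1.19. None passed the edgeR test, 4 had an unadjusted p under 0.05, and Serpinb1a, Cd63 and Ctsd had every old male library above every old female one. Serpinb1a, Cd63 and Prss57 are named here after their values were seen.

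Of 10 genes of granulocyte and monocyte progenitors, 4 rose and 2 fell in females, and 3 rose and 3 fell in males. Spi1, which encodes PU.1, rose by 1.23 and 1.42 on the log2 scale in females and males (edgeR adjusted p = 5.13e-05 and 1.46e-05). Cebpa, the C/EBP factor of progenitors, differed by 0.23 and 0.19 (edgeR adjusted p = 0.131 and 0.192). Irf8, a factor of the monocyte branch, rose in females by 0.72 (edgeR adjusted p = 0.000196) and had 0.63 in males (edgeR adjusted p = 0.0888). Cd34, a marker of progenitors and of endothelial cells, fell, with log2 changes of -2.77 in females and -3.90 in males (edgeR adjusted p = 1.10e-05 and 1.36e-05). The median change of the progenitor list was 0.29 in females and 0.00 in males.

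Genes of later neutrophil stages had larger median changes than the members. Of 17 such genes, 16 rose with age in each sex, with a median log2 change of 1.36 in females and 2.59 in males. Mmp9, gelatinase B, was the exception: it fell by 0.98 in females (edgeR adjusted p = 0.000424) and differed by -0.39 in males (edgeR adjusted p = 0.124). Ltf, lactoferrin of secondary granules, rose by 2.20 and 3.51 (SE 0.149 and 0.233, edgeR adjusted p = 1.17e-05 and 1.46e-05), and Ngp, another secondary granule protein, by 2.07 and 3.26 (edgeR adjusted p = 1.26e-05 and 1.91e-05). S100a9 and S100a8, the calprotectin subunits, rose by 1.19 and 1.21 in females and by 2.36 and 2.35 in males, with edgeR adjusted p between 4.13e-05 and 0.000348. The sum of the 8 members was 4.91% to 7.18% of the sum of these 17 genes at 2 weeks. At 65 weeks it was 3.18% to 3.91% in females and 3.00%, 6.63% and 3.72% in males. Male 65-week replicate 2, at 6.63%, was thus the only old library within the young range, and its late neutrophil sum of 29864 CPM was close to the 30972 CPM of replicate 1.

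**Figure D4:**
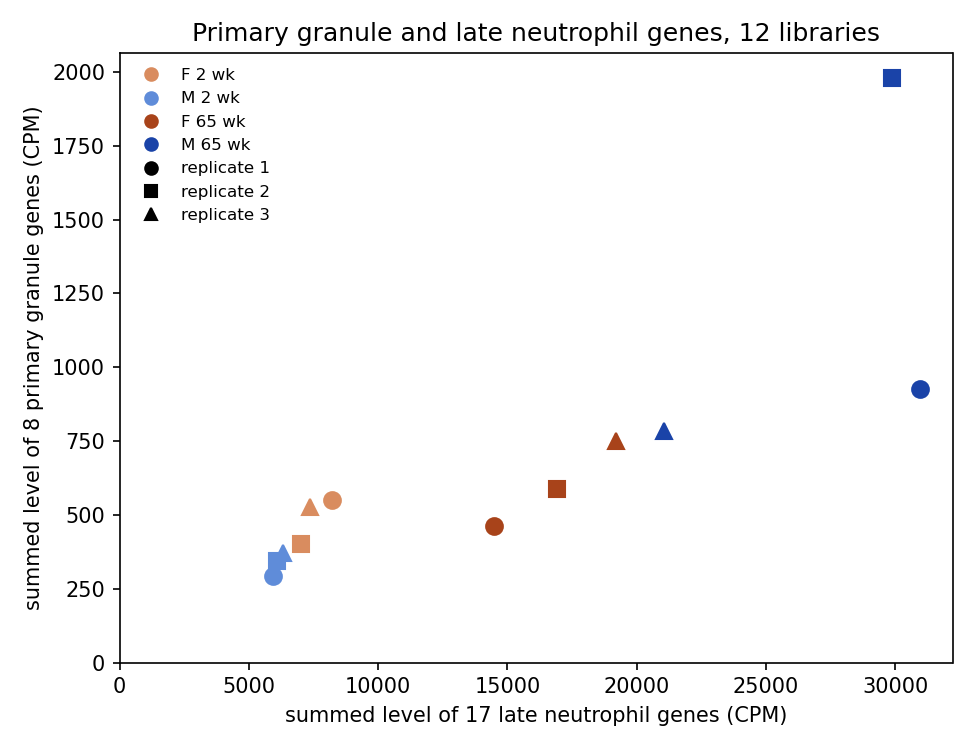
Summed CPM of the 8 members (vertical axis) against summed CPM of 17 late neutrophil genes (horizontal axis), 1 point per library. Old females and 2 old males have higher late neutrophil sums for a given member sum than the young libraries, and male 65-week replicate 2 stands alone at 1980 CPM of the members.

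Markers of other marrow cells were read in the same libraries. Of 8 monocyte genes, 7 rose and 1 fell in females and 6 rose in males; Csf1r, the receptor of the monocyte growth factor, rose by 1.74 and 0.87 on the log2 scale (edgeR adjusted p = 4.18e-05 and 0.00104). Between the old sexes the median of the monocyte list was -0.25, where that of the members was 0.93, and no gene of either passed the test. Of 8 eosinophil, basophil and mast cell genes, 1 rose in each sex (Fcer1a, named after its values were seen), while Prg2 and Epx, eosinophil granule proteins, differed by -0.58 and -0.41 in females and by -0.04 and 0.31 in males, and did not pass. Of 10 cell cycle genes none passed in females (edgeR, and 2 at an unadjusted p under 0.05) and 2 rose in males, Mki67 by 1.61 and Top2a by 0.73 (edgeR adjusted p = 0.00396 and 0.0269). The cell cycle sum of male 65-week replicate 2 was 5462 CPM, the highest of the 12 libraries, beside 4360 and 3085 CPM in the other old males, and its part in the members' levels in that library was not tested.

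The genes whose profile over the 12 libraries was nearest to the mean of the members were sought among 14032 protein-coding genes, by the root mean square difference of centred log2 CPM. They were Mogat2 (0.18), Cldn15 (0.20), Trem5 (0.22), Nkg7 (0.22) and Septin5 (0.23), where the median over all genes compared was 0.86. The members themselves lay at 0.10 (Ms4a3) to 0.26 (Cebpe). Each member is part of the mean, which lowers its distance, so these values are not like those of other genes. Septin5 was the highest of the 5 nearest genes, at 16.0, 13.6, 24.5 and 38.8 CPM in young females, young males, old females and old males. The order of groups was that of the members. For single members, Prss57, a serine protease of the same granules, was nearest to Mpo (0.22) and to Prtn3 (0.19). Camp, the cathelicidin of secondary granules, was nearest to Fcnb (0.18), and 4930438A08Rik to Cebpe (0.08). Mogat2 was nearest to Ctsg and Ms4a3, Nkg7 to Gfi1 and Trem5 to Elane.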

How the data were processed

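The libraries of this series were made by RNA-seq from BECs of 12 samples, with paired reads of 100 nt. The authors deposited 1 table of counts per gene, not normalised. The submitters' processing notes name mm9, TopHat2 and HTSeq, whereas the methods of the study name GRCm39, STAR and featureCounts, and which made the table was not resolved. The use of strand is not stated. The extracted molecule is labelled polyadenylated RNA although the kit was for total RNA, which was not resolved either.

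Libraries were grouped by the sex and age in their labels. Of 37620 Ensembl IDs, 31052 matched GENCODE M39 (GRCm39) and carried 99.3% of the counts, and names, coordinates and exon lengths came from it. CPM used library totals. Each comparison was fitted to the whole table with edgeR 4.0.16 in R 4.3.3 (TMM scaling, genes kept by filterByExpr at 10 counts, quasi-likelihood F test, adjustment by Benjamini-Hochberg, threshold 0.05), on the 6 libraries compared or on all 12 for the interaction. Profiles used log2 CPM with a prior count of 2. The fits were also run on simulated counts in which every gene had the same spread and no library stood apart. That run does not show how the fits behave with the spread of these libraries. DESeq2 1.42.0, other scalings, no filter, 1 model of all libraries, the replicate number as a block and fits without each library in turn were the alternatives.

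The members, gene lists and motifs were chosen with earlier results of these data known. From each other list the genes named were up to 4 with the highest mean CPM over the 12 libraries, except where stated. Emcn, Mmp9, the sex-linked genes and the nearest genes were named for what they check or by their rank. Xist and Y-linked genes were used as a check of labels only. Promoter sequences were RefSeq (GRCm38.p6), matched by symbol for 7 of 8 members.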

Additional observations from a re-analysis of the deposited data

Results flagged for a closer look

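The libraries of the sexes stood in opposite order at the 2 ages for 5 members: every male library was below every female one at 2 weeks and above at 65 weeks. Of all genes, 141 of 13798 (1.02%) had this pattern. No member passed the edgeR test between the sexes at either age. The difference between the ages (male over female at 65 weeks minus male over female at 2 weeks, log2) was 1.61 for Mpo, 1.78 for Elane, 1.55 for Ms4a3, 1.61 for Fcnb and 1.45 for Cebpe. The difference was tested by the interaction and did not pass. The edgeR adjusted p was 0.186 for Mpo, 0.183 for Elane, 0.147 for Ms4a3, 0.141 for Fcnb and 0.119 for Cebpe. Without male 65-week replicate 3 the edgeR adjusted p was between 0.00738 and 0.0281, in a fit that called 750 genes over the whole table. Without male 65-week replicate 2 the differences were 1.04 for Mpo, 1.17 for Elane, 1.14 for Ms4a3, 1.20 for Fcnb and 1.22 for Cebpe, and none passed (edgeR adjusted p between 0.169 and 0.199). Groups of 3 libraries are too small for a test of a single library that stands apart, so none was made for male 65-week replicate 2.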

How the results depend on the processing

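The members called with age in females (4) were 2 with library totals only and 2 with all 12 libraries in 1 model, and from 2 to 6 when 1 library was left out. The count in males was 8 under every alternative run. Between the sexes, 0 members were called by edgeR under each other alternative, and DESeq2 called 7 at 2 weeks, 3 at 65 weeks and 5 in the interaction. Leaving out 1 library gave 0 at 2 weeks, 0 to 4 at 65 weeks and 0 to 6 in the interaction. Over all genes edgeR called 5, 6 and 1 in these comparisons and DESeq2 417, 363 and 353, and without male 65-week replicate 3 edgeR called 830 at 65 weeks and 750 in the interaction. The cause of these differences was not tested. With the replicate block the counts were 4, 8, 0, 0 and 0. Replicate numbers did not pair the libraries (correlation of deviations from -0.36 to 0.14), and only 1 of 3 libraries correlated best with its own number in each age comparison and none in the sex comparisons. The summed levels moved by less than 1 SD under TMM scaling, and that of old males was between 856 and 1454 CPM when 1 library was left out. Of 520 values of single members under an alternative, 481 kept their direction and side of the threshold, 12 lost and 27 gained a call, and none turned. With 3 libraries a group, differences between the old sexes have wide intervals. Depth limited Gfi1 most, whose count was as low as 147 in a library.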
